A study of Mus musculus with 60 samples.

Results

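The naive pluripotency transcription factors are described here through the nascent RNA of 10 genes: Pou5f1, Sox2, Nanog, Klf4, Klf2, Klf5, Esrrb, Tfcp2l1, Tbx3 and Prdm14. They were chosen by name, with earlier results of these data known, so counts of called factors are a description. The rows of the count table whose Ensembl transcript maps to one of these symbols in GENCODE M21 were taken. This gave 11 rows for 10 of the 26937 genes in the table. Esrrb has 2 rows, and the longer transcript stands for the gene unless stated otherwise.

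In mouse embryonic stem cells (mESCs) the identity of the naive epiblast is held by a network of transcription factors that bind each other's enhancers. OCT4 (the product of Pou5f1), SOX2 and NANOG form its core. Around them, KLF4, TFCP2L1 and TBX3 relay the cytokine LIF, KLF2 responds to inhibition of MEK, ESRRB responds to inhibition of GSK3, and PRDM14 restrains FGF signalling and DNA methylation. Several of these genes lie far from the enhancers that drive them, and cohesin and CTCF fold the DNA between such elements into loops.

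The study used EU-seq, in which RNA made during a pulse of 0.5 mM 5-ethynyl uridine (20 min) is captured and sequenced, and 60 libraries were used here. All mESCs were E14 cells kept in serum-free medium with LIF and inhibitors of MEK and GSK3, a medium that holds them in the naive state. RAD21-AID mESCs carry a degron on the cohesin subunit RAD21, which is degraded with 500 µM indole-3-acetic acid (IAA). An initial experiment comprised 2 control libraries and 2 treated for 4 h, and an additional experiment 12 and 12. CTCF-AID mESCs gave 4 control and 4 IAA libraries (500 µM, 6 h), of which 2 of each were made with a stranded kit. CTCF-YF-AA mESCs carry dTAG-tagged CTCF with substitutions that stop it from anchoring cohesin. Libraries were made without dTAG-13 and after 2 h and 4 h of it, 2 for each state. The ΔN/ΔC line carries 1 CTCF allele without its N terminus on a BromoTag (degraded by AGB1) and 1 without its C terminus on a dTAG (degraded by dTAG-13). Libraries came in pairs, from control cells and from cells given AGB1 (100 nM), dTAG-13 or the combination for 2 h. Labels name controls only as such, and the methods describe treatment with DMSO or the named compounds. The control CTCF-YF-AA and ΔN/ΔC cells thus already lack wild-type CTCF. Neural progenitor cells (NPCs) were differentiated from RAD21-AID mESCs by way of epiblast stem cells and also sampled in pairs of libraries. These were controls, 1 h, 2 h and 4 h of IAA, and 1 h of A-485 (10 µM), which blocks the acetyltransferase activity of CBP and p300. The sources give dTAG-13 at 200 nM or 100 nM for CTCF-YF-AA, and at 100 nM in the labels but 200 nM in the column names for ΔN/ΔC. The methods describe picking of single colonies for the CTCF-YF-AA and ΔN/ΔC lines, so line and clone cannot be told apart. The study calls its EU-seq replicates after CTCF depletion biological, and speaks of the RAD21-AID libraries only as replicates. It does not say whether cultures were separate, and p-values measure the spread between these libraries. None of the libraries used here came from cells without a degron given IAA, dTAG-13 or AGB1. Loss of the tagged protein and other effects of the compound thus cannot be told apart.

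The 250 bases before the RefSeq start site (build GRCm38.p6) are shown for Klf4, which fell in both RAD21-AID experiments, and for Sox2 and Nanog, whose windows hold the motif matches described next. Capitals mark those matches.
Klf4, chr4:55532476-55532725, minus strand: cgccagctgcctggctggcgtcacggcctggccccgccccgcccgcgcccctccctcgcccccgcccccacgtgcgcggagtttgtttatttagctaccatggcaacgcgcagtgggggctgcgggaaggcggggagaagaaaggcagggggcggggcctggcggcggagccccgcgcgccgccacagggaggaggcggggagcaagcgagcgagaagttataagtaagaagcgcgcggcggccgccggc
Sox2, chr3:34649745-34649994, plus strand: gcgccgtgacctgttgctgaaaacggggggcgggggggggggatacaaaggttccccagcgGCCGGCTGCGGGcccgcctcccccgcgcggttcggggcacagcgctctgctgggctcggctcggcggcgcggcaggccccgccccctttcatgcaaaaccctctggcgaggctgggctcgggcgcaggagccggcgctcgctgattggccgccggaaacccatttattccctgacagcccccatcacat
Nanog, chr6:122707239-122707488, plus strand: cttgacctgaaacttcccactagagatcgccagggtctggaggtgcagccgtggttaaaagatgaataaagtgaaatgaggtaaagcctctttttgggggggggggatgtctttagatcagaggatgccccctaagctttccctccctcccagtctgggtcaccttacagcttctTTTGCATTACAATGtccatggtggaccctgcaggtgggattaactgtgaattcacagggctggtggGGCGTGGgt
Windows were given for 7 of the 10 genes (Sox2, Klf4, Nanog, Pou5f1, Esrrb, Tfcp2l1 and Klf2, 10 windows in all), and Prdm14, Tbx3 and Klf5 are named only. Motifs were searched on both strands of 32851 windows. The joint element of OCT4 and SOX2 (CATTGTNATGCAAA) was found in 2 windows, 0.00609% of all, which are the 2 overlapping windows of Nanog and share 1 site at chr6:122707414-122707427, starting 75 bases before the start site of the window shown. A core of the CTCF motif (CCNNNAGNNGGC) was found in 7.17% of windows and, among the 10, in that of Sox2 (chr3:34649806-34649817). The KLF motif CCACNCC was in 29.2% of windows and in 6 of the 10 (both of Nanog, both of Esrrb, 1 of Pou5f1 and that of Tfcp2l1), and the ESRRB motif TCAAGGTCA in 0.387% and in none of the 10. The Sox2 window ends upstream of the counted transcript (chr3:34650405-34652461). These matches are letters in a window and say nothing of binding.

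Library totals ranged from 4027449 to 21898781 counts. The summed level of 7 other mESC markers was 1059 to 2242 CPM (counts scaled to library size, with TMM factors) in mESC libraries and at most 8.46 CPM in NPC libraries, whereas 9 NPC markers summed to at most 44.3 CPM in mESCs and to 552 to 635 CPM in NPCs, or 188 to 235 CPM after A-485. Among the NPC markers Hes5 was near 0 (0.780 CPM), and a primitive endoderm list reached 274 to 301 CPM in the NPC controls through Pdgfra (267.3 CPM), with the endoderm factor Sox17 at 0. The stranded CTCF-AID pairs stood apart, with a chi-square of 35.85 per degree of freedom between the 2 controls and 29.23 between the 2 IAA libraries, against 1.44 to 12.75 in the other groups measured. In bulk libraries fewer cells that transcribe a gene and less RNA per cell cannot be told apart. Sox2 lies wholly inside Sox2ot, a long transcript on the same strand that has no row of its own here, so reads of the pair cannot be separated. Gm19553 runs antisense to 31% of Pou5f1 and Tbx3os1 to 5.02% of Tbx3, and whether counting used strand is not given in the sources used here.

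Per length of gene body, Sox2 was the most transcribed of the 10 genes in the 12 additional RAD21-AID controls, at 2036 ± 81.8 TPM (a level scaled for length and library size; SD, n = 12). Nanog followed at 1442 ± 28.5 TPM and Klf2 at 1050 ± 43.0 TPM. Klf4 (693 ± 26.2 TPM) and Pou5f1 (643 ± 26.4 TPM) overlapped in range, as Pou5f1 reached 679 TPM and Klf4 went down to 644 TPM. Tbx3 stood at 545 TPM, Klf5 at 418 TPM, Tfcp2l1 at 252 TPM, Esrrb at 162 TPM and Prdm14 at 89.1 TPM. No other neighbours in this order overlapped. The range was 22.9-fold. It was 10.8-fold when the same gene-body counts were divided by exonic length, where Nanog came first (784 TPM) and Sox2 stood at 309 TPM. Reads in exons alone were not counted.

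Across the 6 groups of control mESCs, the KLF factor Klf4 varied the most, 3.76-fold between group means. Its 2 libraries gave 345 and 374 CPM in unstranded CTCF-AID controls, 319 and 324 in CTCF-YF-AA, 278 and 282 in ΔN/ΔC, and 87.0 and 104 in the initial RAD21-AID controls. The 12 additional RAD21-AID controls spanned 195 to 231 CPM, and the stranded CTCF-AID controls gave 314 and 111 CPM. Esrrb and Tfcp2l1 varied the least, 1.32-fold and 1.38-fold. The other ratios were 2.55 for Pou5f1, 2.36 for Tbx3, 2.29 for Nanog, 1.92 for Sox2, 1.82 for Klf5, 1.76 for Prdm14 and 1.68 for Klf2. The initial RAD21-AID controls were lowest for 7 of the 10 genes. They were made with another library kit than the additional ones of the same line, so line, kit and experiment cannot be told apart in this order. For Sox2, the additional RAD21-AID controls (221 to 269 CPM) overlapped unstranded CTCF-AID (264 and 326 CPM), stranded CTCF-AID (232 and 233 CPM) and CTCF-YF-AA controls (212 and 239.7 CPM). The unstranded CTCF-AID controls lay above both the stranded ones and CTCF-YF-AA without overlap, and ΔN/ΔC (199 and 211 CPM) and the initial RAD21-AID controls (145 and 163 CPM) lay below all of these, each without overlap of the group above it.

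**Figure D1:**
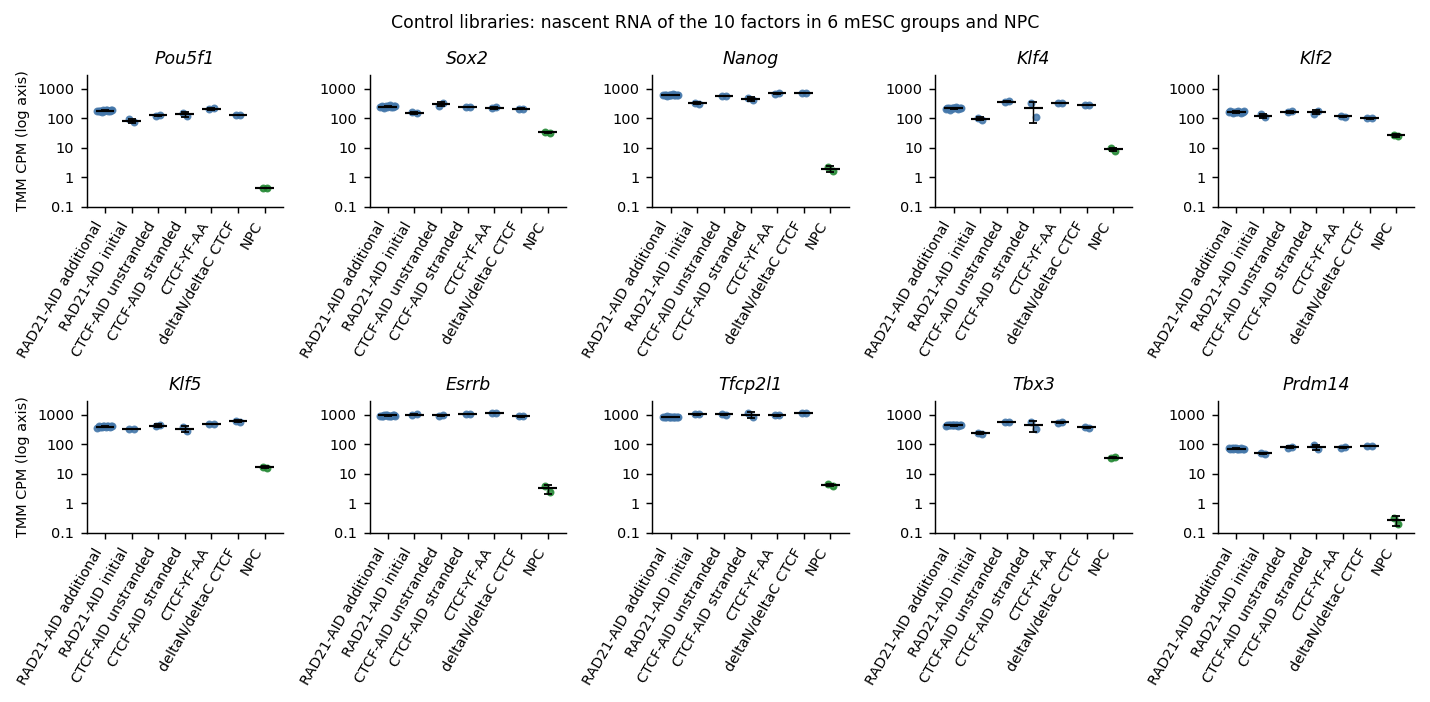
Nascent RNA (TMM CPM, log axis) of the 10 factors in control libraries of 6 mESC groups (blue) and of NPC (green). Points are libraries, bars the mean and SD. NPC libraries lie below every mESC library for each gene, and the 2 stranded CTCF-AID controls differ for Klf4 (314 and 111 CPM).

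One direct test between controls of different lines was made, of CTCF-YF-AA against unstranded CTCF-AID (2 against 2), in which 38.2% of all transcripts tested were called. Throughout, a call required that the adjusted p lay under 0.05 and that the level moved by 1.3-fold or more. Of the 10 factors 3 were called. Pou5f1 was higher in CTCF-YF-AA (196 and 218 against 119.7 and 125 CPM; log2 fold change 0.72 ± 0.08, SE; adjusted p = 1.56e-06). Klf2 was lower (113 and 116 against 157 and 173 CPM; -0.58 ± 0.08, adjusted p = 9.87e-05), as was Sox2 (-0.42 ± 0.09, adjusted p = 0.00419). The call of Sox2 was lost without unstranded CTCF-AID control 2 (-0.27, adjusted p = 0.0108) or CTCF-YF-AA control 1 (-0.36, adjusted p = 0.0659). Line and experiment cannot be told apart here.

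After 4 h of IAA to deplete RAD21, nascent RNA of 6 of the 10 factors was lower in the additional experiment, by up to 1.90-fold. None was higher past the threshold. In the same test 12.3% of 15732 transcripts were called, 4.84% lower and 7.44% higher. The median log2 fold change was -0.38 over the 10 factors and 0.03 over all transcripts tested. All 10 had an adjusted p under 0.05, as had 58.3% of all transcripts tested, so that the 1.3-fold limit set the calls. Log2 fold changes are given after subtracting the median of expressed transcripts, and p tests the change before that.

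Of the core factors, Pou5f1 and Sox2 fell and Nanog stayed near its control level. Pou5f1, the POU-domain factor OCT4, ranged from 163 to 194 CPM (median 180.0) in the 12 controls and from 127 to 144 CPM (median 136) after IAA. Sox2, its HMG-box partner, ranged from 221 to 269 CPM (median 247) in controls and from 179 to 199 CPM (median 187) after IAA. The groups did not overlap for either gene, and both changed by nearly the same amount (-0.38 ± 0.02 for each; adjusted p = 8.80e-21 for Pou5f1 and 7.35e-22 for Sox2). How many of all transcripts lacked overlap was not counted in either RAD21-AID experiment. Both lie just past the 1.3-fold limit: the Sox2 call was lost without control 7, control 8, IAA 5 or IAA 11 (-0.37 to -0.38), and that of Pou5f1 without control 8, control 12 or IAA 4 (-0.37 to -0.38), with adjusted p of at most 6.21e-20 in each. Nanog, a homeodomain factor, spanned 583 to 636 CPM (median 608) in controls and 531 to 635 CPM (median 578) after IAA. Its groups overlapped over most of their range, and its change was -0.06 ± 0.02 (adjusted p = 0.005).

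The 3 Krüppel-like factors differed from each other. Klf5 showed the largest change of the 10, from 361 to 415 CPM (median 407) in controls to 197 to 217 CPM (median 209.8) after IAA (-0.92 ± 0.02, adjusted p = 2.17e-40). Klf4 changed from 195 to 231 CPM (median 220.1) to 110.4 to 132 CPM (median 117; -0.86 ± 0.02, adjusted p = 6.94e-35). In both, every IAA library lay far below every control. Klf2 spanned 145 to 181 CPM (median 163) in controls and 136 to 172 CPM (median 144) after IAA, so the groups overlapped (-0.14 ± 0.03, adjusted p = 2.72e-05), and it was not called.

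Esrrb, an orphan nuclear receptor, lay at 914 to 1006 CPM (median 951) in controls and at 724 to 803 CPM (median 758) after IAA, without overlap. Its change of -0.31 ± 0.02 (adjusted p = 3.16e-22) was 1.24-fold and was not called, and its other row gave the same value. Tfcp2l1, a CP2-family factor, was the only one of the 10 with a higher level after IAA, at 877 to 949 CPM (median 912) against 820 to 892 CPM (median 848) in controls. The groups overlapped, and the change of 0.12 ± 0.02 (adjusted p = 1.20e-07) was not called. Tbx3, a T-box factor, dropped from 428 to 466 CPM (median 447) to 281 to 297 CPM (median 291; -0.59 ± 0.02, adjusted p = 3.80e-35). Prdm14, a PR-domain zinc-finger protein, dropped from 68.3 to 77.0 CPM (median 71.8) to 35.3 to 40.4 CPM (median 38.2; -0.90 ± 0.03, adjusted p = 9.26e-34). For Tbx3 and Prdm14 the groups lay far apart. Of the 24 libraries 2 carry another batch label, and the same count of 6 was called with batch as a covariate or in the 11 pairs of the larger batch alone, where Klf5 gave -0.94 and Tfcp2l1 0.12. The summed mESC markers were also lower after IAA (1619 to 1686 against 1914 to 2027 CPM), and those of primitive endoderm higher but low (11.3 to 14.1 against 7.62 to 9.78 CPM), and their part in these values was not tested.

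**Figure D2:**
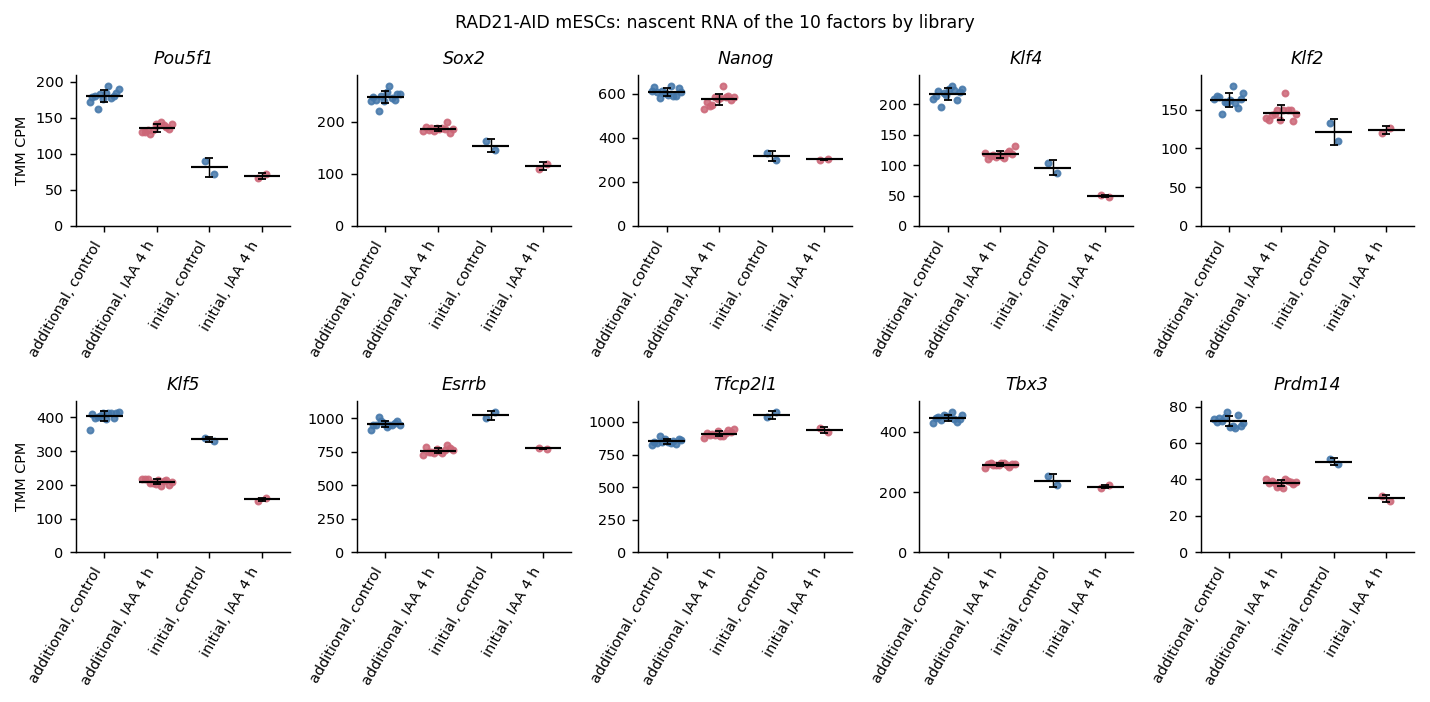
Nascent RNA (TMM CPM) of the 10 factors in RAD21-AID mESCs without (blue) and with (red) 4 h of IAA, in the additional (12 libraries a group) and the initial experiment (2 a group). Points are libraries, bars the mean and SD. Groups of Klf4, Klf5, Prdm14, Sox2 and Esrrb do not overlap in either experiment. Those of Tbx3 lie far apart in the additional one (281 to 297 against 428 to 466 CPM). In the initial one they lie close together, also without overlap.

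In the initial experiment 5 of the 10 factors were lower, where 4.74% of 15177 transcripts were called, 2.61% lower and 2.13% higher. The same 5 had an adjusted p under 0.05, as had 8.63% of all transcripts tested. Without IAA 1 or IAA 2 only 2.71% and 2.32% of transcripts were called. Klf5 gave 339 and 329 CPM in controls and 153 and 159.6 CPM after IAA (-1.07 ± 0.08, adjusted p = 1.01e-40). Klf4 gave 104 and 87.0 CPM against 50.6 and 47.8 CPM (-0.94 ± 0.08, adjusted p = 1.29e-26). Prdm14 gave 51.1 and 48.4 CPM against 31.1 and 28.2 CPM (-0.73 ± 0.10, adjusted p = 8.89e-11). These 3 genes separated by the widest margins here as well. Sox2 (-0.40 ± 0.08, adjusted p = 4.64e-06) and Esrrb (-0.38 ± 0.08, adjusted p = 0.000207) were called closer to the limit. The Sox2 call was lost without control 1 (-0.31, adjusted p = 0.000251) or IAA 1 (-0.33, adjusted p = 0.102). That of Esrrb was lost without control 2 (-0.35, adjusted p = 1.83e-05), IAA 1 (-0.38, adjusted p = 0.191) or IAA 2 (-0.37, adjusted p = 0.347), and its other row was not called (-0.37). Pou5f1 gave 90.7 and 71.7 CPM against 66.6 and 72.6 CPM and overlapped (-0.20 ± 0.08, adjusted p = 0.107). Nanog (-0.04), Klf2 (0.05), Tfcp2l1 (-0.15) and Tbx3 (-0.11) had adjusted p of 0.279 to 0.805. The summed mESC markers were lower after IAA here too (1059 to 1068 against 1330.4 to 1356 CPM), and their part was not tested.

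The effect of IAA differed between the 2 experiments for 1 of the 10 factors, with 2.29% of all transcripts called in that test of the difference (1.22% without initial IAA 2). Tbx3 gave 253 and 223 CPM in the initial controls and 214 and 222 CPM after IAA, next to a drop to about 291 CPM from 447 CPM in the additional experiment. The difference of its effects was -0.48 ± 0.05 (adjusted p = 8.21e-10). Tfcp2l1 had opposite signs (0.12 and -0.15), and its difference of 0.28 ± 0.04 (adjusted p = 6.70e-05) was under 1.3-fold. Both SE are smaller than that of the initial effect alone (0.08 for each gene), as 1 fit pooled the spread over both experiments. They and the adjusted p thus understate the spread between the initial libraries. The other 8 had differences between -0.18 and 0.16.

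Genes that work with the 10 factors were read from fixed lists, also chosen with earlier results of these data known. The list of other naive and core pluripotency genes includes all the mESC markers summed above, so the marker sums and this list are not separate observations. Of 20 other naive and core pluripotency genes 9 were called lower and none higher in the additional experiment, with a median of -0.21. Of all transcripts 4.84% were called lower and 7.44% higher there. The largest were Lin28a, an RNA-binding repressor of let-7 (-0.84 ± 0.03, adjusted p = 6.44e-29), and Utf1, a chromatin-associated factor (-0.81 ± 0.05, adjusted p = 1.82e-21). Of 13 tested genes of the LIF, STAT3 and GSK3 inputs 3 were lower and 1 higher: the HLH protein Id3 (-1.52 ± 0.06), the kinase Pim3 (-0.71 ± 0.04) and the LIF receptor Lifr (-0.42 ± 0.02) were lower, and Tcf7l1, a repressor of Esrrb and Nanog, was higher (0.47 ± 0.02). Of 7 tested formative and primed genes, Zic2 (-0.76 ± 0.03) and Dnmt3b (-0.60 ± 0.03) were lower and Lef1 (0.62 ± 0.03) higher. In the initial experiment the 3 lists held 3 lower and 1 higher, none, and 2 lower, where 2.61% of all transcripts were called lower and 2.13% higher.

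The nearest tested genes beside the 10 factors gave 5 calls among 20 in the additional experiment, where 12.3% of all transcripts were called. Slc2a3, a glucose transporter gene 13176 bp from Nanog, was lower (-0.67 ± 0.02, adjusted p = 6.84e-36) although Nanog itself was not called. Tcf19, 1962 bp from Pou5f1, was lower as well (-0.52 ± 0.04, next to -0.38 ± 0.02 for Pou5f1). Both noncoding neighbours of Tbx3 were lower, Tbx3os2 at 534 bp (-0.64 ± 0.10) and Gm16064 at 11407 bp (-0.45 ± 0.08). Gm29283, 34795 bp from Prdm14, was higher (0.60 ± 0.03) whereas Prdm14 was lower. No neighbour of Sox2, Klf4, Klf5, Klf2, Esrrb or Tfcp2l1 was called.

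Depletion of CTCF-AID for 6 h gave no call among the 10 factors, where 3.36% of 15611 transcripts were called, 1.79% lower and 1.56% higher. None had an adjusted p under 0.05 in edgeR either (lowest 0.0748, Esrrb), against 3.58% of all transcripts, while 2 had an unadjusted p under 0.05 and DESeq2 called none. Without unstranded control 1, control 2, IAA 1 or IAA 2 only 1.34%, 1.46%, 1.52% and 1.46% of transcripts were called. The median was -0.07 over the 10 and 0.02 over all transcripts tested. Same-numbered libraries deviated together here, and with the replicate number as a block 14.1% of transcripts were called and 29.2% had an adjusted p under 0.05. Under the block 6 of the 10 factors had an adjusted p under 0.05, each by less than 1.3-fold, and still none was called.

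Among the core factors, Sox2 gave 264, 326, 232 and 233 CPM in the 4 controls (unstranded first) and 205, 239, 197 and 206 CPM after IAA, lower in 4 of 4 pairs (-0.27 ± 0.10, adjusted p = 0.160, and -0.27 with adjusted p = 0.000914 under the block). Pou5f1 gave 119.7, 125, 154 and 115 CPM in controls and 103, 105, 132 and 103 CPM after IAA, again lower in 4 of 4 pairs (-0.18 ± 0.12, adjusted p = 0.458, and 0.00369 under the block). Nanog gave 578, 561, 489 and 401 CPM in controls and 618, 640, 543 and 441 CPM after IAA, higher in 4 of 4 pairs (0.18 ± 0.10, adjusted p = 0.518, and 0.0131 under the block). Control and IAA libraries overlapped for all 3 when pairs were ignored.

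Klf4 gave 345, 374, 314 and 111 CPM in controls and 409, 391, 374 and 148 CPM after IAA. The unblocked error was therefore large (0.26 ± 0.36, adjusted p = 0.808), while all 4 pairs were higher (0.28, adjusted p = 0.00367 under the block). Klf5 was split, with 2 pairs lower and 2 higher (0.00 ± 0.22), and Klf2 likewise (-0.01 ± 0.09). Esrrb was the only one whose groups did not overlap, at 932 to 1066 CPM in controls and 787 to 911 CPM after IAA (-0.21 ± 0.06, adjusted p = 0.000575 under the block). How many of all transcripts lacked overlap was not counted. Tbx3 gave 564, 563, 574 and 320 CPM in controls and 413, 395, 426 and 315 CPM after IAA (-0.34 ± 0.19, adjusted p = 0.379, and 0.00263 under the block). In the unstranded libraries alone Tbx3 was called (-0.43, adjusted p = 0.0107), the only call that any choice of these libraries gave, and in the stranded libraries alone edgeR called 0 of 14607 transcripts, 555 of which had an unadjusted p under 0.05. Tfcp2l1 and Prdm14 did not pass in any of these fits. The summed mESC markers were lower after IAA in the unstranded libraries (1519 to 1660.2 against 2125 to 2226 CPM) and those of primitive endoderm higher (31.4 to 32.2 against 17.5 to 19.6 CPM), and their part was not tested.

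**Figure D3:**
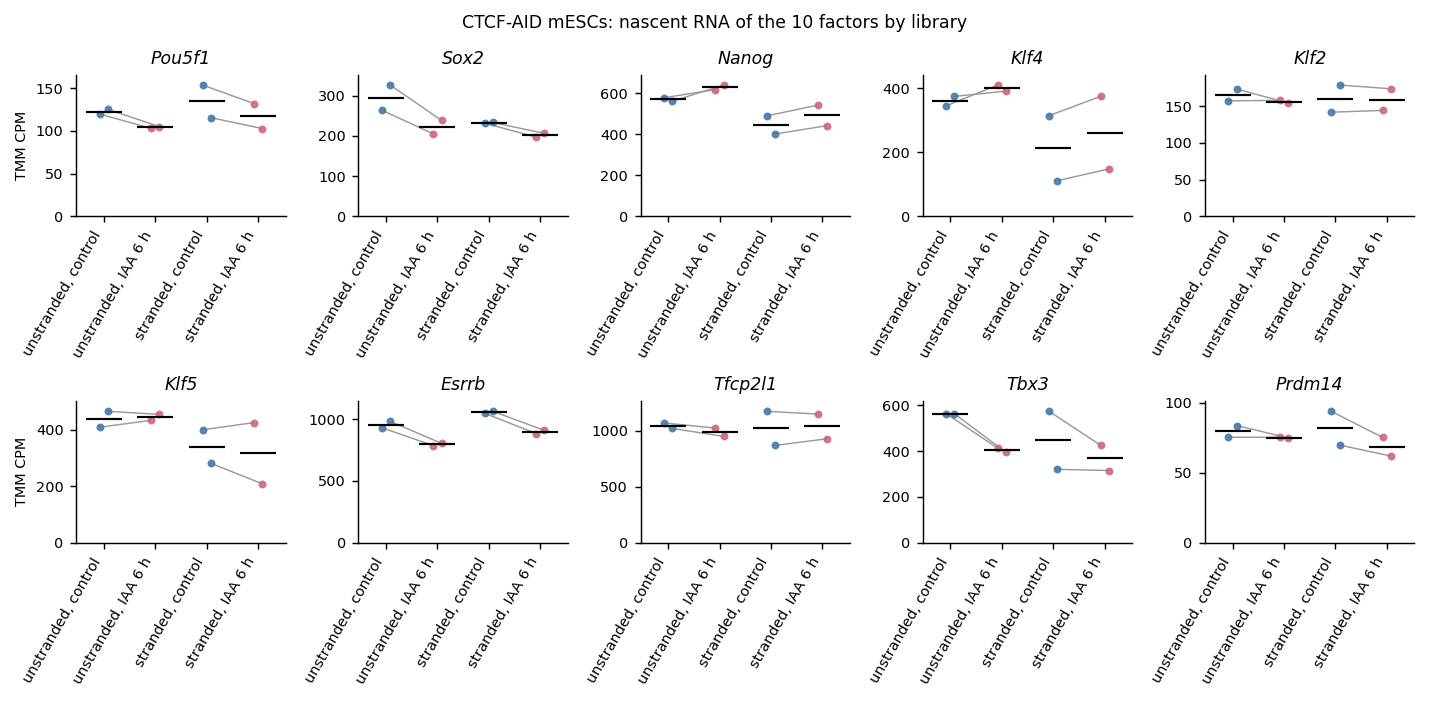
Nascent RNA (TMM CPM) of the 10 factors in CTCF-AID mESCs without (blue) and with (red) 6 h of IAA, in unstranded and stranded libraries. Points are libraries, black lines group means, and grey lines join same-numbered libraries. For Sox2, Pou5f1, Esrrb and Tbx3 the IAA library is the lower one on all 4 lines, and for Klf4 and Nanog the higher one, by less than the distance between the 2 stranded pairs for Klf4.

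Beside the 10 factors, 2 of the 20 other pluripotency genes were called after CTCF-AID depletion, where 3.36% of all transcripts were called. Dppa3, a maternal factor that protects against DNA methylation, was higher (1.98 ± 0.23, adjusted p = 0.00334) and Utf1 lower (-1.85 ± 0.23, adjusted p = 0.00356). The kinase Jak1 was higher (0.63 ± 0.11) and Foxd3 lower (-1.03 ± 0.13).

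The effect of CTCF-AID depletion (6 h) was set against that of RAD21-AID depletion (4 h, additional experiment) in a test of the difference, in which 13.8% of transcripts were called, 7.4% with the higher value after CTCF-AID depletion. Of the 10 factors 3 differed, all with the higher value after CTCF-AID depletion. They are the 3 that RAD21 depletion lowered the most, and that drop is itself part of the difference. The difference was 1.12 ± 0.21 for Klf4 (adjusted p = 0.000124), 0.92 ± 0.13 for Klf5 (adjusted p = 1.21e-06) and 0.77 ± 0.08 for Prdm14 (adjusted p = 3.03e-09). These SE are smaller than those of the CTCF-AID effect alone (0.36, 0.22 and 0.12), as 1 fit pooled the spread over both lines. They and the adjusted p thus understate the spread between CTCF-AID libraries. Nanog (0.24 ± 0.07, adjusted p = 0.00659) and Esrrb (0.10 ± 0.04, adjusted p = 0.0412) differed by less than 1.3-fold. For Sox2, Pou5f1, Tbx3, Klf2 and Tfcp2l1 the differences were -0.11 to 0.25, and Tbx3 passed without stranded CTCF-AID control 1 (0.42, adjusted p = 0.000625). Line, time of treatment and experiment cannot be told apart in this test.

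In CTCF-YF-AA mESCs none of the 10 factors was called after 2 h or 4 h of dTAG-13, where 2.7% of 14009 transcripts were called at 2 h (1.92% lower and 0.778% higher) and 3.33% of 14280 at 4 h (2.31% lower and 1.02% higher). An adjusted p under 0.05 was found for 4 factors at 2 h and 5 at 4 h, against 3.94% and 4.99% of all transcripts. At 2 h the 4 became 0 without control 2 or dTAG-13 library 1, 1 without dTAG-13 library 2, and 0 with the replicate block or DESeq2. At 4 h the 5 became 1 without control 2 or dTAG-13 library 1, 2 without dTAG-13 library 2, and 1 with DESeq2. In edgeR 6 and 8 had an unadjusted p under 0.05, and DESeq2 called none at either time. The changes were small and mostly downward, with 7 of 10 below 0 at 2 h (median -0.14) and all 10 at 4 h (median -0.15), against a median of 0.01 over all transcripts at both times. Both times share their 2 controls. At 4 h, Tbx3 gave 549 and 559 CPM in controls and 453 and 471 CPM after dTAG-13 (-0.26 ± 0.04, adjusted p = 1.05e-05), and at 2 h 478 and 505 CPM (-0.16 ± 0.05, adjusted p = 0.0188). Pou5f1 gave 196 and 218 CPM in controls, 174 and 183 CPM at 2 h (-0.22 ± 0.07, adjusted p = 0.0209) and 177 and 186 CPM at 4 h (-0.20 ± 0.06, adjusted p = 0.0219). Nanog gave 653 and 720.0 CPM in controls, 592 and 617 CPM at 2 h (-0.18 ± 0.05, adjusted p = 0.00322) and 587 and 647 CPM at 4 h (-0.16 ± 0.05, adjusted p = 0.0134). Treated libraries lay below both controls in each of these, with 2 libraries a group, and the share of all transcripts separated so was not counted. Sox2 (-0.21 ± 0.06) and Esrrb (-0.11 ± 0.04) had an adjusted p under 0.05 at 4 h and Prdm14 (-0.30 ± 0.10) at 2 h. The Krüppel-like factors and Tfcp2l1 did not at either time, with changes of -0.14 to 0.05.

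In the ΔN/ΔC line, removal of both truncated proteins lowered Prdm14 and no other factor past the threshold, where 3.5% of 13753 transcripts were called, 2.6% lower and 0.909% higher. Prdm14 gave 87.5 and 87.6 CPM in controls, 78.0 and 78.7 CPM after AGB1, 86.5 and 85.6 CPM after dTAG-13 and 63.8 and 60.4 CPM after both (-0.51 ± 0.07, adjusted p = 2.44e-06). Pou5f1 gave 131 and 131 CPM in controls, 116 and 119 CPM after AGB1, 138 and 119.6 CPM after dTAG-13 and 98.5 and 106 CPM after both (-0.38 ± 0.06, adjusted p = 5.69e-05). This is 1.2994-fold, just under the limit, and Pou5f1 was called without control 1 (-0.38, adjusted p = 0.00239) or without library 2 of both (-0.44, adjusted p = 6.70e-06). Nanog gave 725 and 728 CPM in controls and 612 and 585 CPM after both (-0.30 ± 0.05, adjusted p = 0.000188). Sox2 gave 211 and 199 CPM in controls and 176 and 171 CPM after both (-0.25 ± 0.06, adjusted p = 0.00272). Klf4 stood at 282 and 278 CPM in controls and 314 and 293 CPM after both (0.10 ± 0.05, adjusted p = 0.292). The core factors and Prdm14 were the 4 with an adjusted p under 0.05, against 6.59% of all transcripts.

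Removal of either truncated protein alone gave no call among the 10 and no adjusted p under 0.05. After AGB1 1.44% of transcripts were called (1.03% lower), 2.14% had an adjusted p under 0.05, and the changes of the 10 lay between -0.16 and 0.06. After dTAG-13 0.0587% were called, 0.0808% had an adjusted p under 0.05, and the changes lay between -0.12 and 0.08. An unadjusted p under 0.05 in edgeR was found for 5 factors after AGB1 and 1 after dTAG-13, and DESeq2 called none. In the direct test of AGB1 against dTAG-13 (1.28% called) none of the 10 was called by edgeR or DESeq2, and 4 had an unadjusted p under 0.05. Tbx3 had an adjusted p of 0.0180 there, at 350 and 368 CPM after AGB1 and 410 and 407 CPM after dTAG-13 (-0.18 ± 0.04). The 3 treatments share their 2 controls.

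**Figure D4:**
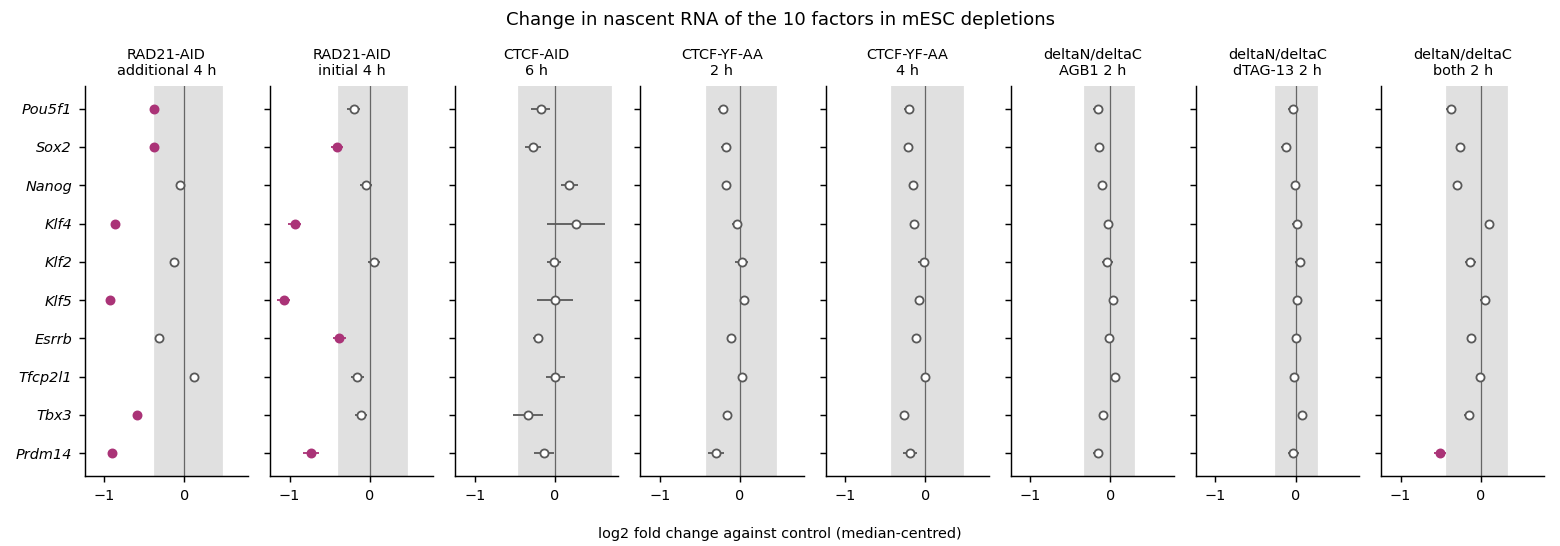
Log2 fold change of the 10 factors against control in the 8 mESC depletions, centred on the median of expressed transcripts. Points are estimates, bars 1 SE, filled points calls, and the grey band the 5th to 95th percentile of all transcripts tested. Filled points lie in both RAD21-AID panels (6 and 5 genes) and for Prdm14 after removal of both truncated CTCF proteins.

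In NPCs all 10 factors were transcribed far less than in mESCs, where 74.5% of 17290 transcripts were called and 33.7% were lower in NPCs. The change was smallest for Klf2, from 145 to 181 CPM in the 12 additional mESC controls to 27.7 and 24.4 CPM in the 2 NPC controls, 6.04-fold lower. Sox2, which is also a factor of neural progenitors, was 7.28-fold lower (33.1 and 32.3 CPM) and Tbx3 11.99-fold lower (35.7 and 36.0 CPM). Klf5 (17.5 and 15.7 CPM) and Klf4 (9.57 and 7.91 CPM) were 23.5-fold and 24.1-fold lower. The other 5 were 194-fold to 386-fold lower. Among them, Pou5f1 had 8 and 9 reads in the 2 NPC controls and Prdm14 6 and 4 reads. Per length, Sox2 (275 TPM) and Klf2 (171 TPM) led in NPCs, Tbx3 stood at 44.7 TPM and Prdm14 at 0.332 TPM. Cell type, batch and experiment cannot be told apart here. The 20 other naive and core pluripotency genes were likewise all called lower, with a median of -7.51.

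In RAD21-AID NPCs, Sox2 was higher at each time of IAA. Only 8 of the 10 factors were tested, since Pou5f1 and Prdm14 stayed under a mean of 20 counts, and all NPC treatments share the same 2 control libraries. For 1 h of treatment reads were counted no further than 90 kb into a gene, which shortens Esrrb alone of the 10, and the controls were counted alike. Of the 8, 3 were called at 1 h (all higher), 2 at 2 h (both higher) and 3 at 4 h (1 higher and 2 lower), where 5.09%, 9.34% and 16.7% of all transcripts were called and 2.35%, 2.36% and 6.2% were higher (2.74%, 6.98% and 10.5% lower). Without IAA 1 the share called at 2 h was 15%. At 4 h 4 of the 8 had an adjusted p under 0.05, against 39.5% of all transcripts.

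Sox2 gave 35.7 and 34.9 CPM in controls and 51.0 and 44.1 CPM after 1 h (0.41 ± 0.07, adjusted p = 0.000262). Counted over whole genes, it gave 33.1 and 32.3 CPM in controls, 53.0 and 55.0 CPM after 2 h (0.70 ± 0.08, adjusted p = 0.000109) and 45.7 and 47.0 CPM after 4 h (0.48 ± 0.07, adjusted p = 1.37e-07). Every IAA library lay above every control, with 2 libraries a group, and the share of all transcripts separated so was not counted. The 5 primitive endoderm markers, nearly all Pdgfra and with Sox17 at 0 throughout, summed to 274 to 279 CPM in controls, 345 to 372 CPM after 2 h and 329 to 332 CPM after 4 h. The 4 neuron markers summed to 278 CPM in both controls, 225 to 230.0 CPM after 2 h and 221 to 235 CPM after 4 h. The part of either in the NPC values was not tested. The call at 1 h was lost without IAA 1 (0.31, adjusted p = 0.00363).

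Klf4 and Klf5 rose at 1 h and were lower at 4 h. Klf4 gave 10.3 and 8.53 CPM in the 1 h controls and 14.1 and 14.3 CPM after IAA (0.59 ± 0.13, adjusted p = 0.00216), but 6.61 and 5.12 CPM after 4 h against 9.57 and 7.91 CPM (-0.59 ± 0.16, adjusted p = 0.00565). The last call was lost without control 1 (-0.44, adjusted p = 0.0752) or IAA 2 (-0.43, adjusted p = 0.104), and with DESeq2 (-0.60, adjusted p = 0.0562). Klf5 gave 18.8 and 16.9 CPM in the 1 h controls and 23.5 and 23.9 CPM after IAA (0.39 ± 0.10, adjusted p = 0.00426), a call lost without control 2 (0.31, adjusted p = 0.0641). After 2 h it stood at 13.2 and 12.3 CPM (-0.38 ± 0.12, adjusted p = 0.0945) and after 4 h at 10.2 and 8.66 CPM, against 17.5 and 15.7 CPM in controls (-0.83 ± 0.12, adjusted p = 1.84e-06). Klf2 gave 35.5 and 33.5 CPM after 2 h against 27.7 and 24.4 CPM (0.40 ± 0.10, adjusted p = 0.0101). That call was lost without control 2 (0.30, adjusted p = 0.162) or IAA 1 (0.37, adjusted p = 0.00293).

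Nanog, Esrrb and Tfcp2l1 had few reads in NPCs, 33 to 82 in each control, and no call was made at any time, with changes of -0.67 to -0.11. Without control 2 Esrrb was called at 4 h (-1.01, adjusted p = 0.00357), and without IAA 1 Tfcp2l1 was called at 1 h (-0.91, adjusted p = 0.0314). The other row of Esrrb was called at 4 h (-0.78 ± 0.30, adjusted p = 0.0441). Tbx3 was lower at 4 h by 1.26-fold (31.2 and 26.7 against 35.7 and 36.0 CPM; -0.33 ± 0.08, adjusted p = 0.00197), and was called without IAA 1 (-0.44, adjusted p = 0.000393).

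Inhibition of CBP and p300 for 1 h called 6 of the 8 tested factors, 5 lower and 1 higher, where 44.5% of all transcripts were called, 33% lower and 11.5% higher. The same 6 had an adjusted p under 0.05, as had 67.7% of all transcripts. Sox2 dropped from 35.7 and 34.9 CPM to 7.33 and 9.40 CPM (-2.20 ± 0.12, adjusted p = 1.99e-10). Klf5 dropped from 18.8 and 16.9 CPM to 4.04 and 4.46 CPM (-2.20 ± 0.15, adjusted p = 3.73e-09). Klf4 dropped from 10.3 and 8.53 CPM to 2.83 and 2.18 CPM (-2.05 ± 0.20, adjusted p = 5.04e-07). These are changes of over 4-fold, and Tbx3 (38.5 and 38.8 to 12.004 and 13.7 CPM; -1.72 ± 0.10, adjusted p = 6.20e-10) and Nanog (2.44 and 1.75 to 0.808 and 0.637 CPM; -1.66 ± 0.36, adjusted p = 0.00159) changed by over 3-fold. Klf2 went the other way, from 29.8 and 26.3 CPM to 50.4 and 49.3 CPM (0.70 ± 0.08, adjusted p = 2.79e-07). Esrrb was not called (-0.73 ± 0.30, adjusted p = 0.0891), but its other row was (-0.85 ± 0.31, adjusted p = 0.0480), as was Esrrb without control 2 (-1.08, adjusted p = 0.0266). Tfcp2l1 gave 4.89 and 4.24 CPM in controls and 4.21 and 5.47 CPM after A-485 (-0.04 ± 0.20, adjusted p = 0.730). The summed NPC markers were also lower after A-485, as given above, and their part in these values was not tested. The median of expressed transcripts moved by 0.12 in this comparison and was subtracted.

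**Figure D5:**
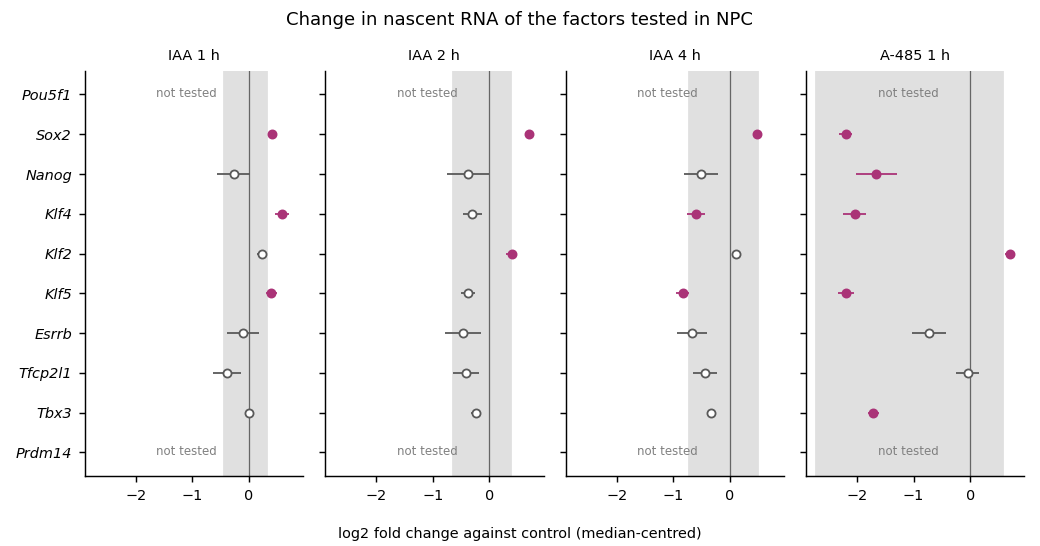
Log2 fold change of the factors tested in NPCs, for 3 times of IAA and for A-485 (1 h), drawn as in the plot of mESC depletions. Sox2 lies above 0 at each IAA time and at -2.20 after A-485, where Klf2 alone is higher.

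The effect of 4 h of IAA differed between NPCs and mESCs (additional experiment) for 2 of the 8 factors with enough reads in NPCs, where 18.2% of transcripts were called in the test of the difference. Sox2 was higher after IAA in NPCs (0.48) and lower in mESCs (-0.38), a difference of 0.88 ± 0.07 (adjusted p = 1.43e-15). Tfcp2l1 differed in the other direction (-0.54 ± 0.15, adjusted p = 0.0122), from few NPC reads, and was no longer called without NPC control 1 (-0.44) or NPC IAA 1 (-0.52). Its SE is smaller than that of the NPC effect alone (0.21), as 1 fit pooled the spread over both cell types. Klf4 passed without NPC IAA 2 (0.45, adjusted p = 0.0451) and Esrrb without NPC control 2 (-0.68, adjusted p = 0.0265). Tbx3 (0.28 ± 0.07, adjusted p = 0.000179) and Klf2 (0.27 ± 0.10, adjusted p = 0.0237) differed by less than 1.3-fold. The difference for Klf5, lower in both cell types, was 0.11 ± 0.11 (adjusted p = 0.377). Cell type and batch cannot be told apart here.

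Over the 15 groups of mESC libraries, which share lines, kits and controls, Pearson correlations of mean log2 CPM describe how the 10 levels moved together. Tbx3 was closest to Sox2 (r = 0.868), and Klf4 to Prdm14 (r = 0.877) and Tbx3 (r = 0.847). Klf2 ran against Tfcp2l1 (r = -0.679) and Klf5 (r = -0.53). Among 12734 genes, the most alike were Prpf4 for Sox2 (r = 0.927), Tomm20 for Klf4 (r = 0.974), Tomm7 for Nanog (r = 0.957), Parp1 for Pou5f1 (r = 0.959), Epb41l4a for Esrrb (r = 0.934), Atp6v1b2 for Tfcp2l1 (r = 0.952), Hnrnpu for Tbx3 (r = 0.964), Cggbp1 for Klf5 (r = 0.955) and Ablim1 for Klf2 (r = 0.984). None of these 9 genes is itself one of the 10 factors.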

How the data were processed

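EU-seq libraries of mESCs and NPCs were analysed from counts. The authors trimmed reads with cutadapt, aligned them to mm10 with bwa meme, dropped poorly mapped reads with SAMtools 1.4 and rRNA and tRNA reads with Bedtools, and counted with HTSeq over the gene body of selected transcripts (651 genes have more than 1). The deposited counts are not normalized (27665 transcripts, 62 columns, replicates kept apart), and the 1 h NPC columns stop at 90 kb. Triptolide is named in the treatment text of libraries whose titles name other treatments, so titles set the groups.

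Library totals were 4027449 to 21898781 counts, and no replicate pair agreed within sampling noise. GENCODE M21 named 27296 of the transcripts by versioned identifier and 159 without the version. In R 4.3.3, transcripts were tested where the mean count of either group exceeded 20, with edgeR 4.0.16 (TMM, quasi-likelihood F test, two-sided, Benjamini-Hochberg over all transcripts tested), with library type as covariate for CTCF-AID. Log2 fold changes had the median over transcripts above 15 TPM subtracted. SE is the uncentred change divided by the root of F. A call needed an adjusted p under 0.05 and at least 1.3-fold. CPM used TMM over all columns, TPM the gene body. Differences between effects were interaction terms. The method was tested on simulated data.

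The members and lists were chosen with earlier results of these data known. Text names all 10 members, up to 3 called list genes per comparison by size (other called genes of a list were named, after their values were seen, where a list held 5 or fewer), the nearest tested neighbours and the most alike genes, of which 1 is not reported here. Replicate numbers paired libraries only for CTCF-AID, by correlated deviations (r = 0.484 to 0.811 in 4 of 4 pairs), not by a label. Alternatives were DESeq2 1.42.0, no filter, no centring, the replicate block, batch, library type, other controls, other scaling and each library left out.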

Additional observations from a re-analysis of the deposited data

Results flagged for a closer look

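For 6 results the effect of a depletion differed between experiments, cell types or lines by an interaction test in edgeR. The effect of 4 h of IAA on Tbx3 was more negative in the additional (-0.59) than in the initial RAD21-AID experiment (-0.11). The difference was -0.48 ± 0.05 (SE; adjusted p = 8.21e-10). This SE is smaller than that of the initial effect alone (0.08) and understates the spread between the initial libraries. Between NPCs and mESCs, the effect of IAA differed by 0.88 ± 0.07 for Sox2 (adjusted p = 1.43e-15) and by -0.54 ± 0.15 for Tfcp2l1 (adjusted p = 0.0122). The value for Tfcp2l1 rests on few NPC reads, and was no longer called without NPC control 1 (-0.44) or NPC IAA 1 (-0.52). Its SE is smaller than that of the NPC effect alone (0.21). Between CTCF-AID and RAD21-AID mESCs it differed by 1.12 ± 0.21 for Klf4 (adjusted p = 0.000124), by 0.77 ± 0.08 for Prdm14 (adjusted p = 3.03e-09) and by 0.92 ± 0.13 for Klf5 (adjusted p = 1.21e-06). These SE are smaller than those of the CTCF-AID effect alone (0.36, 0.12 and 0.22) and understate the spread between CTCF-AID libraries. Why the effects differ was not tested.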

How the results depend on the processing

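Of 908 fits of a factor under alternatives other than leaving out a library, 901 kept their call or lack of one. In the rest 3 calls were lost, 4 were gained and none reversed. Over these and the 1788 fits that left out a library, 62 uncalled values changed sign. The count of factors called after CTCF-AID depletion went from 0 to 1 in unstranded libraries alone. Leaving out 1 library at a time gave 4 to 6 called factors for RAD21-AID additional, 3 to 4 initial, 1 to 2 after AGB1 and dTAG-13, 2 to 3, 1 to 2 and 2 to 4 in NPCs after 1, 2 and 4 h of IAA, 6 to 7 after A-485, 2 to 3 between the CTCF lines, and 1 to 3 (NPC against mESC) and 3 to 4 (CTCF-AID against RAD21-AID) for differences between effects. The range of TPM over the 10 factors was 22.9-fold over gene-body length and 10.8-fold with the same gene-body counts over exonic length. With the replicate block, the call of Esrrb in the initial RAD21-AID experiment was lost (adjusted p = 0.126), Klf5 at 2 h (-0.39, adjusted p = 0.0377) and Esrrb at 4 h (-0.69, adjusted p = 0.0400) were called in NPCs, and no other call of a factor changed. Only 3 of 12 pairs of the additional experiment correlated above 0.1. Numbers were crossed, after seeing the data, for the initial experiment (5 factors and 801 transcripts called, against 4 and 609 with the block) and NPCs at 1 h (3 and 965, against 3 and 762). Without centring Sox2 was not called between the CTCF lines (-0.37), and without a filter Esrrb was called at 4 h in NPCs (adjusted p = 0.0273). Over all transcripts, DESeq2 called 340 against 719 in edgeR (RAD21-AID initial), 894 against 524 (CTCF-AID), 211 against 378 and 275 against 475 (CTCF-YF-AA, 2 h and 4 h) and 273 against 482 (AGB1 and dTAG-13). No filter gave 2920 against 1932 (additional), CTCF-AID gave 2201 with the block, 1089 unstranded and 0 stranded, and dTAG-13 alone 13 against 8 with the block. Depth limits the NPC values of Nanog, Esrrb, Tfcp2l1, Pou5f1 and Prdm14.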

Other observations

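A few neighbours of the factors passed in CTCF depletions in which the factor itself did not: 2 of 18 tested after CTCF-AID depletion (3.36% of all transcripts), 1 of 18 at each time in CTCF-YF-AA (2.7% and 3.33%) and 2 of 15 after removal of both truncated proteins (3.5%). They are too few to set apart from those shares. Dppa3, 77217 bp from Nanog, was higher after CTCF-AID depletion (1.98 ± 0.23, adjusted p = 0.00334) and after removal of both truncated CTCF proteins (0.41 ± 0.07, adjusted p = 2.17e-05), where Nanog stood at 0.18 and -0.30. Ap1m1, a clathrin adaptor gene 61648 bp from Klf2, was higher after CTCF-AID depletion (0.48 ± 0.08, adjusted p = 0.0213). Gli2, 148964 bp from Tfcp2l1, was lower after removal of both truncated proteins (-0.39 ± 0.05, adjusted p = 3.04e-06). In CTCF-YF-AA cells Gm12510, 61329 bp from Klf4, was higher at 2 h (0.56 ± 0.17, adjusted p = 0.0293) and Vash1, 157075 bp from Esrrb, at 4 h (0.57 ± 0.16, adjusted p = 0.0216). Whether a neighbour and its factor differ was not tested.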
